A study of Mus musculus with 24 samples.

Results

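Dock3, Mc5r, Neurog1, Ush1c, Kctd4 and Smco2 were chosen by their falls in the pituitaries of Cga-deficient males relative to wild-type males, as an earlier account of these arrays had ranked them. They are 6 of the 12027 genes measured. The choice rested on the male comparison, so the male differences below are a description and carry no test. Whole pituitaries were compared on Illumina bead arrays, 1 array for each of 24 mice, in 4 groups of 6: Cga-deficient males, wild-type males, Cga-deficient females and wild-type females. Cga encodes the alpha subunit shared by the pituitary glycoprotein hormones, the labels describe the mutants as deficient in it without naming an allele, and the wild types were littermates. All mice were 8 weeks old, on a mixed C57Bl6j and 129S2SvPas background. The labels name no litter, array slide or scan date, so no such batch could be examined. RNA quality was given only as a mean for all samples.

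The 6 genes belong to unrelated families. Dock3 is a DOCK-family guanine nucleotide exchange factor that activates the small GTPase Rac, and it is best known from neurons. Mc5r is a melanocortin receptor that signals through cyclic AMP and is known from exocrine glands. Neurog1 is a basic helix-loop-helix transcription factor of the neurogenin family, whose members bind E-box sequences with E-protein partners and promote a neuronal fate. Ush1c encodes harmonin, a PDZ-domain scaffold of hair-cell stereocilia and intestinal microvilli that is affected in Usher syndrome. Kctd4 belongs to the KCTD family of BTB-domain proteins, several of which are adaptors of Cullin-3 ubiquitin ligases. Smco2 encodes a single-pass membrane protein with coiled-coil domains, and its role is little described.

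The sequences around the start sites of 4 of the 6 genes, taken from RefSeq (GRCm38.p6), are given because these genes were low together in the mutants. Each runs 5′ to 3′ on the gene's own strand, from 250 bases before the start to 50 bases after it, and capitals mark the E-box letters CANNTG. The stretches lie at chr9:107231860-107232159 on the minus strand for Dock3, chr13:56252131-56252430 on the minus strand for Neurog1, chr7:46238441-46238740 on the minus strand for Ush1c and chr6:146849860-146850159 on the plus strand for Smco2.
Dock3: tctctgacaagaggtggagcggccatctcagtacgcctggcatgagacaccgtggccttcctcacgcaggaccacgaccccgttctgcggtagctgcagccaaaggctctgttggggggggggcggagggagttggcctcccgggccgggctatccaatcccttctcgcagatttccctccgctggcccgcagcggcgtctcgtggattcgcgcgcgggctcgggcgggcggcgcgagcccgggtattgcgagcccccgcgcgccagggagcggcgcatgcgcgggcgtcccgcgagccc
Neurog1: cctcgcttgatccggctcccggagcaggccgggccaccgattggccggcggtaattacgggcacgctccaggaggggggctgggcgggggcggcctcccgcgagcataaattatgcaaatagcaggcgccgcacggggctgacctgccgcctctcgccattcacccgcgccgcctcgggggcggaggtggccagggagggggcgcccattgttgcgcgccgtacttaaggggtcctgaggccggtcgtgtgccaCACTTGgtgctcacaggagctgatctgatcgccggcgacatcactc
Ush1c: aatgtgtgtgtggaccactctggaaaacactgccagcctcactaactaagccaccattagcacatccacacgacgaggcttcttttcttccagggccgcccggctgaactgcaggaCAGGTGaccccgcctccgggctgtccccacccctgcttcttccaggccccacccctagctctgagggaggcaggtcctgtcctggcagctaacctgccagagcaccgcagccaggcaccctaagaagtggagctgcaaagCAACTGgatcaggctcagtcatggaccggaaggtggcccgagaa
Smco2: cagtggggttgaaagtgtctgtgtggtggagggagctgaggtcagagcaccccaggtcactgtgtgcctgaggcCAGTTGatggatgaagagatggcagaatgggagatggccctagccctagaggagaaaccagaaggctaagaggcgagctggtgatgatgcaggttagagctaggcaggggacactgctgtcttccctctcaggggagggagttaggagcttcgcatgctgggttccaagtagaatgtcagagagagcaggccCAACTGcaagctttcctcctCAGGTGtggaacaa
These stretches share little. The Dock3 stretch held no E-box letters, that of Neurog1 held 1 match, that of Ush1c 2 and that of Smco2 3, on either strand. Of 32851 mouse stretches of the same length, 72.3% held at least 1 match. GGTCA, the core repeat of the estrogen response element, occurred once in Neurog1, once in Ush1c and 2 times in Smco2, and was not in the Dock3 stretch, against 40.5% of all stretches with a match. The Ush1c match overlapped the end of its first E-box by 2 letters. The POU1F1 letters ATGNATA were in none of the 4 stretches, against 8.8% of all stretches with a match. The core of the cyclic AMP response element, TGACG, was likewise in none of the 4, against 20.8% of all. The same held for the GATA-factor letters AGATAA, which 11.2% of all stretches held. Guanine and cytosine made up 71.7% of the Dock3 stretch, 69.3% of the Neurog1 stretch, 60.7% of the Ush1c stretch and 56% of the Smco2 stretch, beside a median of 52.7%.

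Levels are given as log2 normalised intensity, and a probe counts as detected on an array where its detection p-value is under 0.05. Between 47.1% and 50.8% of probes were detected on each mutant array, against 39.7% to 46.4% on each wild-type array, so the arrays differed by genotype in this measure. The targeted gene was lower in the mutants, with Cga at 12.41 in mutant males, against 14.77 in wild-type males, and at 12.68 in mutant females, against 14.78 in wild-type females. Where that probe lies relative to the altered part of Cga is not stated, so this checks the labels only in part. Gh, Prl and Pomc, which define pituitary cells, had group means between 14.40 and 15.05. That is near the top of the scale, where the same normalised values recur among these genes, so small differences there are not resolved. In whole glands, fewer cells of a type and less RNA per cell cannot be told apart.

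Dock3 was lower in every mutant than in every wild type of either sex. On mutant male arrays its level was 6.26 at the lowest, 8.19 at the median and 9.62 at the highest, against 13.59, 13.66 and 13.88 on wild-type male arrays. On mutant female arrays it was 5.87, 6.50 and 7.76, against 12.66, 12.76 and 13.04 on wild-type female arrays. The probe was detected on all 24 arrays. The male groups lay 3.98 apart between their nearest animals and the female groups 4.89 apart. The difference in means, mutant minus wild type, was -5.60 ± 0.38 (SE, n = 6 a group) in males, which is 48.4-fold. Each SE of a difference comes from a spread shared by all groups, not from the groups compared alone. In females it was -6.10 ± 0.38, which is 68.6-fold (limma adjusted p = 8.4e-13 over all genes). A second Dock3 probe was detected on no array, so the result rests on 1 probe.

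Mc5r fell to the edge of detection in the mutants. Its level was 4.79, 5.39 and 6.40 (lowest, median and highest) in mutant males, against 10.74, 10.93 and 11.27 in wild-type males. In mutant females it was 4.79, 4.94 and 5.27, against 9.36, 9.68 and 9.91 in wild-type females. Only 3 mutant male arrays and 1 mutant female array detected the probe, while all 12 wild-type arrays did. Where a probe was undetected on some arrays, a fold is given as a lower bound, with each mutant signal raised to the lowest detected signal of its array. Mc5r was at least 40.8-fold lower in mutant males and at least 21.9-fold lower in mutant females. Its mutant arrays alone would not have passed the filter of 6 detected arrays, so it entered the measured genes through the wild types, and no test is given for it.

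Neurog1 showed the same pattern. Its level was 4.84, 5.55 and 6.21 in mutant males, against 9.88, 10.11 and 10.59 in wild-type males. It was 4.99, 5.26 and 5.67 in mutant females, against 8.73, 8.96 and 9.09 in wild-type females. The probe was detected on 4 mutant male and 3 mutant female arrays and on all wild-type arrays. It was at least 24.2-fold lower in mutant males and at least 12.01-fold lower in mutant females (limma adjusted p = 5.7e-15).

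Ush1c was detected on all arrays. Its SD was 0.23 in mutant males, against 0.09 in wild-type males, and 0.20 in mutant females, against 0.09 in wild-type females. Mutant males had 6.14, 6.34 and 6.78, against 10.48, 10.61 and 10.72 in wild-type males. Mutant females had 6.16, 6.38 and 6.61, against 9.64, 9.71 and 9.84 in wild-type females. Its difference was -4.22 ± 0.10 in males, or 18.6-fold, and -3.34 ± 0.10 in females, or 10.1-fold (limma adjusted p = 1.5e-19). A second Ush1c probe was undetected on every array.

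Kctd4 and Smco2 ranked lower than the other 4 genes among the male falls. Like Mc5r, they entered the measured genes only through the wild types, and their values are described without a test. The earlier account of these arrays had also named both among the largest female falls. Kctd4 had 4.75, 5.001 and 5.33 in mutant males, against 6.89, 7.23 and 7.29 in wild-type males. It had 4.75, 4.88 and 5.08 in mutant females, against 8.50, 9.08 and 9.87 in wild-type females. It was detected on 1 mutant male array and no mutant female array, which gives a level at least 3.72-fold lower in mutant males and at least 15.3-fold lower in mutant females. A second Kctd4 probe had the same direction, at -1.89 ± 0.18 in males and -3.32 ± 0.18 in females.

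Smco2 had 5.02, 5.19 and 5.64 in mutant males, against 7.69, 8.71 and 8.78 in wild-type males. It had 4.55, 4.61 and 5.30 in mutant females, against 7.82, 9.15 and 9.87 in wild-type females. The probe was detected on 3 mutant male arrays and 1 mutant female array. The bounds were at least 9.29-fold lower in mutant males and at least 14.3-fold lower in mutant females.

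**Figure D1:**
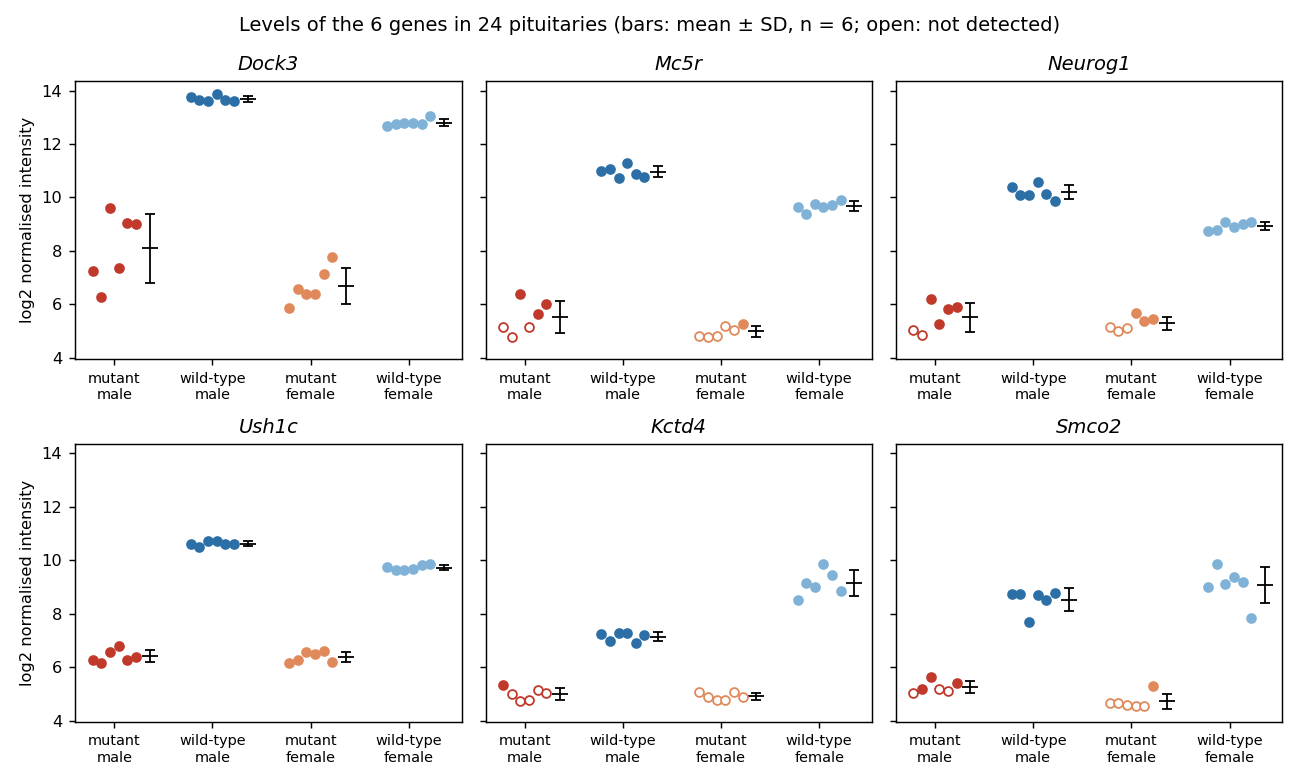
Log2 normalised intensity of each gene (vertical axis) in the 4 groups of 6 mice, with 1 point per animal, filled where the probe was detected, and bars for the mean and SD. Every mutant point lies below every wild-type point of its sex, and Dock3 is spread from 6.26 to 9.62 among mutant males.

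For none of the 6 genes did the mutants overlap the wild types of their sex. In males, where this contrast chose the genes, 15.6% of all genes measured had groups that did not overlap with the mutants lower, and 26.5% were called lower at an adjusted p under 0.05. In females, 11.5% had lower mutants without overlap and 25.5% were called lower. Dock3, Neurog1 and Ush1c, the 3 of the 6 genes whose mutant arrays alone passed the detection filter, were each called lower in females. The 6 genes were chosen with earlier results of these data known. That account had also named Dock3, Kctd4 and Smco2 among the larger female falls. The female calls of Dock3, Neurog1 and Ush1c are thus not independent evidence. The size of the falls, bounds included, depended on the background correction. On uncorrected values scaled to the 75th percentile, the fall of Dock3 was 30.5-fold in males and 35.1-fold in females, and that of Ush1c was 9.07-fold in males and 5.22-fold in females. For the genes with undetected mutant signals the uncorrected values include background on both sides, and the bounds above do not hold on that scale. The uncorrected log2 differences were -3.86 in males and -2.90 in females for Mc5r, -3.19 and -2.15 for Neurog1, -1.02 and -2.48 for Kctd4, and -1.88 and -2.55 for Smco2.

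By size of the fitted male difference, among called genes whose groups did not overlap, Dock3, Mc5r and Neurog1 ranked 1, 2 and 3, Ush1c 5, Smco2 13 and Kctd4 72. The genes in between that are not described here were 6030468B19Rik at rank 4 (-4.47 in males), Agtr1a at 6 (-4.21), Cntnap4 at 7 (-3.59), Greb1 at 8 (-3.53), Fut2 at 9 (-3.50), Galnt16 at 10 (-3.47), Gpr83 at 11 (-3.34) and Klk1b27 at 12 (-3.32). Smco2, at -3.26, lay just below Klk1b27, and Kctd4, at -2.15, lay well outside the leading ranks. In females Dock3 ranked 3 among all falls, behind Reln (-7.47) and Crhbp (-7.42), Mc5r 6, Smco2 7, Kctd4 9, Neurog1 18 and Ush1c 21. All ranks use fitted differences, and those of undetected signals depend on the background correction.

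**Figure D2:**
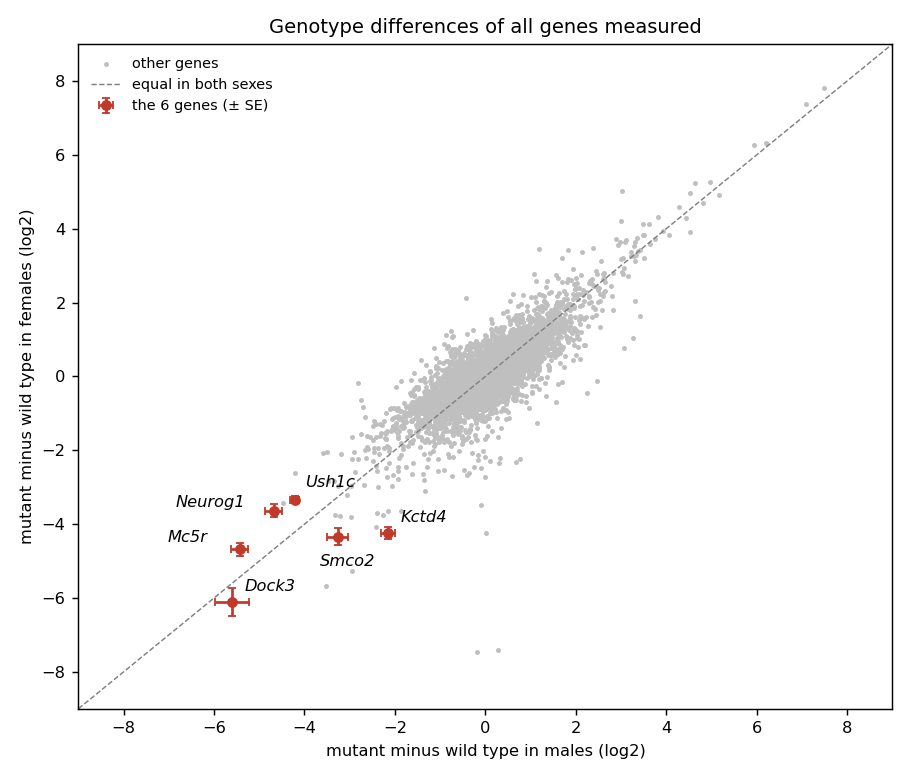
Mutant minus wild-type difference in log2 normalised intensity in males (horizontal) and females (vertical) for all genes measured, with the 6 genes in red with SE bars. Ush1c, at -4.22 and -3.34, lies above the line of equal differences and Dock3, at -5.60 and -6.10, within its error of it, while the places of the other 4 genes depend on mutant signals that were partly undetected.

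The genes divided by sex in the wild types. Dock3, Mc5r, Neurog1 and Ush1c were lower in wild-type females than in wild-type males, by differences of -0.90 ± 0.38, -1.29 ± 0.19, -1.27 ± 0.18 and -0.90 ± 0.10 (female minus male, SE). For each of these 4 genes all wild-type females lay below all wild-type males, as for 6.64% of all genes measured. Kctd4 went the other way, at 1.99 ± 0.15, with all wild-type females above all wild-type males, as for 4.5% of all genes. Smco2 had 0.54 ± 0.23, and its wild-type groups overlapped. Each SE draws on the spread of all groups. That of Dock3 mostly reflects the mutants, with SDs of 1.31 in males and 0.66 in females. Its wild-type SDs were 0.11 in males and 0.13 in females. For Smco2 the wild-type SDs were 0.42 in males and 0.68 in females. In the mutants the sexes overlapped for every one of the 6 genes. The female minus male difference among mutants was -1.40 ± 0.38 for Dock3 and -0.02 ± 0.10 for Ush1c, and it is not given for the other 4 genes, whose mutant signals were partly undetected.

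The order of levels was therefore wild-type males, wild-type females and then both mutant groups for Dock3, Mc5r, Neurog1 and Ush1c. For Kctd4 it was wild-type females, wild-type males and then both mutant groups, and for Smco2 the wild-type sexes could not be ordered beyond their spread. The genotype difference in females minus that in males was 0.88 ± 0.14 for Ush1c, a smaller fall in females, and -0.50 ± 0.54 for Dock3. These values are given without a test, since the male contrast chose the genes. For Mc5r, Neurog1, Kctd4 and Smco2 the falls are lower bounds, so their size in females and males cannot be compared.

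From animal to animal, Dock3 varied far more among mutants than among wild types. Its SD was 1.31 in mutant males, against 0.11 in wild-type males, and 0.66 in mutant females, against 0.13 in wild-type females. Of all genes measured, 99.9% had a lower SD than Dock3 in mutant males and 99.2% in mutant females. Of 10506 genes detected on all mutant male arrays, 5 had a range as wide as that of Dock3, which was 3.35, beside a median range of 0.45. The standard error of the bead mean, a technical error within an array, averaged 0.06 for Dock3 in mutant males. Mc5r and Neurog1 had SDs of 0.61 and 0.55 in mutant males, where part of their signals were undetected, against 0.20 and 0.26 in wild-type males.

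Dock3, Mc5r and Neurog1 ordered the mutant males much alike. The animals numbered 3, 5 and 6 had Dock3 at 9.62, 9.03 and 8.99, Mc5r at 6.40, 5.63 and 6.01, and Neurog1 at 6.21, 5.82 and 5.91. The animals numbered 1, 2 and 4 had Dock3 at 7.26, 6.26 and 7.38, Mc5r at 5.14, 4.79 and 5.15, and Neurog1 at 5.02, 4.84 and 5.27. The same 3 animals were thus the highest for all 3 genes, with no overlap between them and the others.

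Across the 6 mutant males Pearson's r was 0.99 for Dock3 with Neurog1 (rho 0.94, exact permutation p = 0.0042 and 0.017), 0.96 for Dock3 with Mc5r (rho 0.94, exact p = 0.0097 and 0.017) and 0.97 for Mc5r with Neurog1 (rho 1.0, exact p = 0.0042 and 0.0028). All tests of correlation are two-sided. Over the 60 pairs formed by the 6 genes in the 4 groups, none passed after Benjamini-Hochberg adjustment (smallest adjusted exact p = 0.125). Unadjusted, 8 pairs had an exact p under 0.05. With 6 animals the smallest possible exact permutation p for r was 0.0014, so 1 pair alone could not have passed over 60. Of the 32 pairs with both probes detected on all arrays of the group, none passed (smallest adjusted exact p = 0.2), with 4 under 0.05 unadjusted. The mutant male pairs above are not among these 32. Without the 2 animals farthest from the median of the first gene, r in mutant males was 0.98, 0.92 and 0.97 for these pairs.

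Several cell markers also separated mutant males 3, 5 and 6 from the others, in either direction. Pomc was higher on arrays 3, 5 and 6, at 15.09, 15.03 and 15.12, against 14.92, 14.95 and 14.89 on the others. These values lie near the top of the scale, where differences this small are not resolved. Kdr, detected on 1 of the 6 arrays, was higher too. Pecam1, Angpt1 and Nr5a1 were lower on arrays 3, 5 and 6 without overlap. Of the array measures and posterior lobe markers, only Col25a1 separated these animals, also lower on arrays 3, 5 and 6. The mean of the 3 genes had an r of -0.71 (rho -0.89, exact permutation p = 0.12 for r) with the share of probes detected on the 6 mutant male arrays, 0.71 (rho 0.89, exact p = 0.13) with the lowest detected signal and 0.00032 (rho 0.20, exact p = 1.0) with the raw median intensity. The share detected was 47.3%, 48.9% and 47.1% on arrays 3, 5 and 6 and 48.9%, 49.0% and 48.1% on arrays 1, 2 and 4. Of the posterior lobe markers, Avp was at 6.63, 5.12 and 6.44 on arrays 3, 5 and 6 and at 4.93, 5.01 and 5.22 on arrays 1, 2 and 4, and it was detected on 2 of the 6. Oxt was at 7.24, 6.65 and 7.43 on arrays 3, 5 and 6 and at 6.06, 6.32 and 7.01 on the others. Rax was at 5.83, 5.40 and 5.70 on arrays 3, 5 and 6 and at 5.598, 5.23 and 5.82 on the others. Col25a1 was lowest on arrays 3, 5 and 6, at 5.04, 5.05 and 5.10, against 5.16, 5.20 and 5.47 on the others. It was detected on 2 of the 6 arrays. On arrays 3, 5 and 6 it lay below the lowest detected signal (5.27, 5.19 and 5.28), so its order there is one of background signals. The part of these measures and markers in the covariation was not tested. With undetected signals raised to the lowest detected signal, r was 0.96 for Dock3 with Neurog1, 0.90 for Dock3 with Mc5r and 0.97 for Mc5r with Neurog1.

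Among the mutant females Mc5r and Neurog1 also varied together (r 0.90, rho 0.89, exact permutation p = 0.026 and 0.033, adjusted p = 0.20 for r over the 60 pairs), though 5 and 3 of their 6 signals were undetected. Dock3 had an r of 0.71 with Mc5r and 0.35 with Neurog1 there (exact permutation p = 0.13 and 0.50).

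In the 12 wild types, where all 6 genes were detected on every array, deviations from the group mean were compared by permuting animals within groups. Of the 15 pairs of genes, 3 passed an adjusted p of 0.05, and these were the pairs among Dock3, Mc5r and Neurog1. Dock3 with Neurog1 had an r of 0.79 (adjusted permutation p = 0.0024, rho 0.91, adjusted permutation p = 0.0025). Mc5r with Neurog1 had an r of 0.79 (adjusted permutation p = 0.027, rho 0.78, adjusted permutation p = 0.057). Dock3 with Mc5r had an r of 0.77 (adjusted permutation p = 0.031, rho 0.73, adjusted permutation p = 0.070). By rank only Dock3 with Neurog1 passed. The other 12 pairs had r between -0.66 and 0.40, and the lowest, Ush1c with Smco2, had an adjusted permutation p of 0.063 (rho -0.63).

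The wild-type relation rested in part on few animals. Without the 2 animals farthest from the median of Dock3, wild-type male 4 and wild-type female 6, r was 0.79 for Dock3 with Neurog1 and 0.48 for Dock3 with Mc5r. Without the 2 farthest for Mc5r it was 0.69 for Mc5r with Neurog1. No pair passed the adjusted threshold in these reduced sets (adjusted permutation p = 0.21, 0.51 and 0.24), in which 2 pairs had an unadjusted p under 0.05. With each animal left out in turn, 1 to 4 pairs passed, and 1 pair, Dock3 with Neurog1, passed without wild-type female 6, without wild-type male 5 and without wild-type male 6. The deviations behind these values were small, with SDs of Dock3 of 0.13 in wild-type females and 0.11 in wild-type males beside a bead error of 0.05 on each array.

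Within each wild-type sex the r values stayed positive. In wild-type males they were 0.94 for Dock3 with Neurog1, 0.89 for Dock3 with Mc5r and 0.80 for Mc5r with Neurog1 (exact permutation p = 0.0097, 0.017 and 0.057). In wild-type females they were 0.69, 0.67 and 0.82 for the same pairs (exact permutation p = 0.067, 0.18 and 0.022). No pair passed after adjustment within either sex. Over the wild types the mean of the 3 genes had an r of 0.58 (rho 0.42, permutation p = 0.070 for r) with the raw median intensity, 0.55 (rho 0.34, permutation p = 0.097) with the lowest detected signal and -0.53 (rho -0.34, permutation p = 0.10) with the share of probes detected. After the raw median intensity was taken out, r was 0.67, 0.70 and 0.73 for Dock3 with Neurog1, Dock3 with Mc5r and Mc5r with Neurog1, and none of these pairs passed (adjusted permutation p = 0.067 each). After the share detected was taken out, r was 0.75, 0.76 and 0.79 for the same pairs (adjusted permutation p = 0.021 each). After the lowest detected signal was taken out, r was 0.75, 0.74 and 0.77 (adjusted permutation p = 0.033, 0.044 and 0.038).

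**Figure D3:**
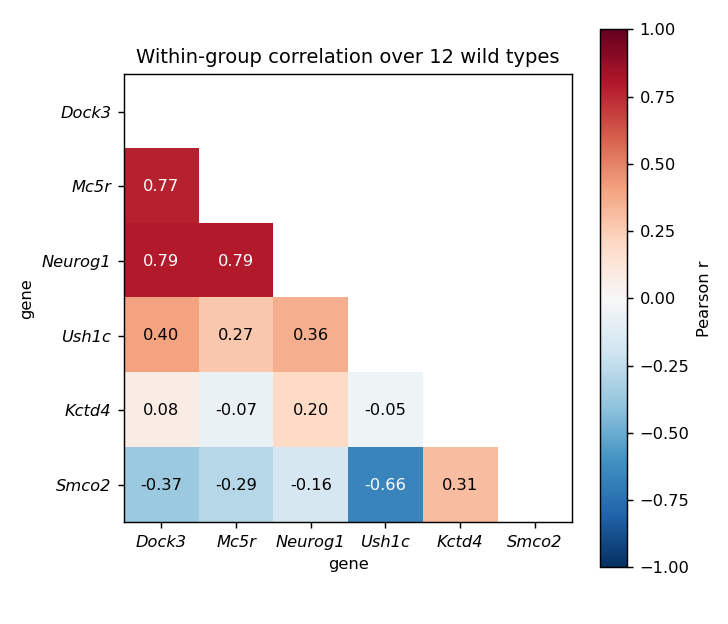
Pearson's r (colour and printed value) between each pair of the 6 genes over 12 wild types, after the mean of each sex was taken away. The 3 pairs among Dock3, Mc5r and Neurog1 have r from 0.77 to 0.79, and Ush1c with Smco2 has -0.66.

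**Figure D4:**
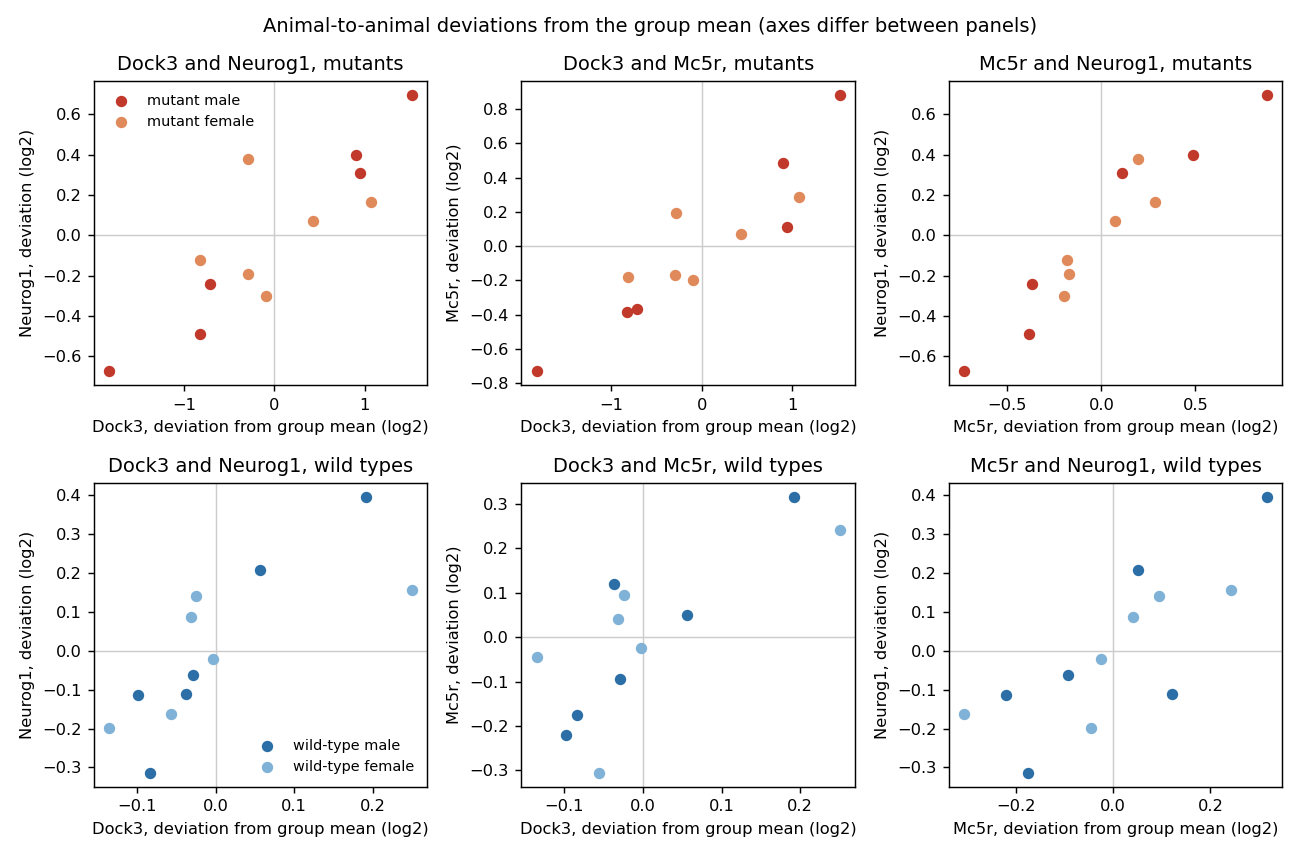
Deviation of each animal from its group mean, in log2 units, for the 3 pairs among Dock3, Mc5r and Neurog1, with mutants in the upper row and wild types in the lower row; the axes differ between panels, and some mutant signals of Mc5r and Neurog1 were undetected. Mutant males spread along a line in all 3 pairs (r from 0.96 to 0.99), over a range of Dock3 of 3.35, far wider than in wild types.

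Kctd4 and Smco2 varied within the wild types too, and over the 12 wild types no pair of either with those 3 genes passed. The SD of Kctd4 was 0.48 in wild-type females and 0.17 in wild-type males, and that of Smco2 was 0.68 and 0.42. Over the 12 wild types Kctd4 had r between -0.07 and 0.31 with the other 5 genes, and Smco2 between -0.66 and 0.31. The sexes differed in sign for Smco2 with Dock3, Mc5r and Neurog1. Its r was -0.79, -0.87 and -0.57 in wild-type females and 0.43, 0.54 and 0.20 in wild-type males, none passing after adjustment. Ush1c was the steadiest, with an SD of 0.09 in wild-type males and in wild-type females.

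The genes most like the 6 over all 24 arrays, by r with the mean of their standardised levels, were Pcsk6 (0.99), Hsbp1l1 (0.99), Eif4e3 (0.99), Anxa5 (0.98) and Frmd5 (0.98). The differences between the 4 groups enter this likeness, and Pcsk6, a proprotein convertase, differed by -3.22 in males and -3.77 in females. Within the wild types, among 9391 genes detected on all 12 arrays, the genes closest to Dock3 were Ryr2 (r 0.90), Atg5 (0.90) and Spp2 (0.90). Those closest to Mc5r were 6030468B19Rik (0.93), Supt7l (0.87) and Nxf3 (0.87), and those closest to Neurog1 were Cacnb4 (0.91), Nxf3 (0.89) and 6030468B19Rik (0.87). For Ush1c they were Ccng2 (0.93), Chst2 (0.87) and Magi1 (0.85), for Kctd4 Slc39a13 (0.81), Pfas (0.80) and Top3a (0.78), and for Smco2 Heatr5b (0.90), Pigu (0.90) and Tpd52l1 (0.86). The leading genes of so many are high by selection, and 95% of genes had an r with Dock3 under 0.55. Neurog1 had a higher r with Dock3 than all but 0.33% of genes, and Mc5r than all but 0.48%.

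Markers of pituitary cell types moved with genotype beside these falls. Of 5 lactotrope markers 3 were called lower in mutant males, Agtr1a, Angpt1 and Esr1, and 5 in mutant females. Prl, the hormone of these cells, was at -0.10 ± 0.15 in males and Drd2 at -0.29 ± 0.12, neither called there. Prl lay near the top of the scale, which limits its difference. Of 4 thyrotrope markers 3 were called higher and 1, Cga itself, lower in both sexes. Of 4 gonadotrope markers 2 were called lower in mutant males, and 2 lower and 2 higher in mutant females. Summed levels of markers are given as unlogged intensities. For the gonadotrope markers the sum, mostly from Lhb, was 8149 to 11830 in mutant males, against 18060 to 25300 in wild-type males. It was 6273 to 8781 in mutant females, against 7885 to 11290 in wild-type females. For 2 somatotrope markers the sum, mostly from Gh, was 29850 to 32160 in mutant males, against 34500 to 39270 in wild-type males. It was 28530 to 33450 in mutant females, against 33770 to 37560 in wild-type females. The summed level of 2 leukocyte markers was 413 to 627 in mutant males, against 195 to 276 in wild-type males, and 398 to 564 in mutant females, against 222 to 294 in wild-type females. That of 4 posterior lobe markers was 182 to 345 in mutant males, against 419 to 633 in wild-type males, and 171 to 281 in mutant females, against 502 to 741 in wild-type females. Oxt carried that sum, at -1.76 ± 0.20 in males and -2.46 ± 0.20 in females, while Avp, Rax and Col25a1 were at 0.11 ± 0.24, 0.05 ± 0.16 and 0.08 ± 0.11 in males, not called. Ptprc, S100b and Pax7, which define leukocytes, folliculostellate cells and melanotropes, were detected on no array. The part of these shifts in the levels of the 6 genes was not tested.

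Other genes of the same families showed no common direction. Of 78 genes measured in 6 lists, 17 were called higher and 23 lower in mutant males, or 51.3% of them, beside 51.5% of all genes. In mutant females 19 were called higher and 27 lower, or 59%, beside 48.3% of all genes. Their median difference was -0.03 in each sex, beside -0.01 in males and -0.03 in females over all genes.

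Of the 23 other genes of the DOCK family and Rac activation, 5 were called higher and 7 lower in mutant males and 4 higher and 9 lower in mutant females (median -0.12 and -0.09). The Rac exchange factor Vav3 rose by 1.22 ± 0.10 in males and 1.59 ± 0.10 in females, and the Rac effector kinase Pak3 by 1.58 ± 0.17 and 0.71 ± 0.17. Elmo2, a partner of DOCK proteins, rose by 0.83 ± 0.12 in males and 0.79 ± 0.12 in females. Rac1 was called higher in mutant males, at 0.61 ± 0.15, and did not pass in mutant females, at 0.24 ± 0.15. Rac2 was detected on no wild-type male array and on 2 wild-type female arrays, and was at least 1.08-fold higher in mutant males. In mutant females its difference was 0.22 ± 0.14. Like Eps8 below, it entered the measured genes only through the mutants. No test is given for it, though the count in males above includes its call. The exchange factor Tiam1 and Wasf1, which links Rac to actin, fell in females (-0.68 ± 0.10 and -0.55 ± 0.08). In males Tiam1 was at -0.25 ± 0.10, called, but with an adjusted p between 0.059 and 0.078 when mutant male 1, 2 or 6 or wild-type male 3, 5 or 6 was left out and with 75th percentile scaling (-0.15, adjusted p = 0.16), and Wasf1 was at -0.04 ± 0.08. The adaptor Crk was called higher in females (0.26 ± 0.10), a call lost when wild-type female 1, 4 or 5 or mutant female 2, 5 or 6 was left out (0.22 to 0.26) and as the mean of its kept probes (0.16). Without mutant female 5, the difference of Rac2 in females was 0.34.

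Of 11 genes of melanocortin signalling, which include Pomc, the source of the ligands, 2 were called higher and 3 lower in mutant males and 3 higher and 3 lower in mutant females (median -0.10 and 0.07). The melanocortin receptor Mc3r was at -1.50 ± 0.20 in mutant females, a fall, and at -0.37 ± 0.20 in mutant males, which did not pass, though it did with 75th percentile scaling (-0.23) and with the males fitted alone (-0.37). Its probe was detected on 3 mutant male, 4 wild-type male and 4 mutant female arrays. Adenylyl cyclases Adcy3 and Adcy6 fell in males (-0.86 ± 0.09 and -0.95 ± 0.11) and in females (-0.37 ± 0.09 and -0.60 ± 0.11). Gnas, the stimulatory G protein, rose by 0.29 ± 0.08 and 0.35 ± 0.08. Attractin, Atrn, rose in females (0.48 ± 0.14) and was called in males at 0.38 ± 0.14, a call lost without mutant male 2 (0.35), without wild-type male 4 (0.29) and with 75th percentile scaling (0.17).

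Of 21 neurogenic helix-loop-helix and Notch genes, 6 were called higher and 5 lower in mutant males and 7 each way in mutant females (median 0.04 and -0.07). Neurod4, a neurogenic factor of the Neurod family, fell in both sexes, at -2.43 ± 0.19 in males and -4.08 ± 0.19 in females. Hes6 rose by 1.57 ± 0.14 and 1.27 ± 0.14. The helix-loop-helix inhibitors Id1 and Id3 fell in females (-1.65 ± 0.17 and -1.10 ± 0.13) and were at 0.28 ± 0.17 and -0.06 ± 0.13 in males. Myt1 and Heyl fell in both sexes, at -0.42 ± 0.11 and -0.61 ± 0.14 in males and -0.58 ± 0.11 and -0.42 ± 0.14 in females. Hey2 was called lower at -0.41 ± 0.15 in males and -0.42 ± 0.15 in females, calls lost without wild-type male 1 (-0.34), wild-type male 6 (-0.34), mutant male 4 (-0.36), mutant female 3 (-0.32) or wild-type female 6 (-0.37). Notch3 was called lower in males (-0.44 ± 0.16), which was lost without wild-type male 6 (-0.37).

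Of 6 Usher and microvillus genes, 3 were called lower and 2 higher in mutant males and 2 each way in mutant females (median -0.36 and -0.03). Whrn, or whirlin, another PDZ scaffold of Usher syndrome, fell in both sexes, at -2.42 ± 0.11 in males and -1.63 ± 0.11 in females. Espn, an actin-bundling protein, rose by 0.68 ± 0.18 in males and 1.67 ± 0.18 in females. Eps8, an actin-capping protein, was at least 2.09-fold higher in males and at least 2.10-fold higher in females. Eps8 was detected on no wild-type male array and on 5 wild-type female arrays. Its wild-type arrays alone would not have passed the filter of 6 detected arrays. It thus entered the measured genes through the mutants, and no test is given for it, though the counts above include its calls. Espn in males was at 0.14, not called, as the mean of its kept probes. The motor gene Myo7a fell in males (-1.11 ± 0.15) and was at 0.04 ± 0.15 in females.

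Of 16 KCTD and Cullin-3 genes, 2 were called higher and 4 lower in mutant males and 3 higher and 5 lower in mutant females (median -0.02 in each sex). Kctd12 rose by 0.83 ± 0.11 in males and 0.91 ± 0.11 in females, and Kctd12b by 0.58 ± 0.14 and 0.55 ± 0.14. Kctd10 fell in both sexes (-0.37 ± 0.09 and -0.78 ± 0.09), as did Kctd20 (-0.33 ± 0.09 and -0.30 ± 0.09). Kctd9 was called higher in females (0.36 ± 0.12), but not as the mean of its kept probes (0.12). The 1 measured relative of Smco2, Smco4, fell in both sexes, at -0.49 ± 0.13 in males and -0.52 ± 0.13 in females.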

How the data were processed

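Total RNA of 24 pituitaries was labelled and hybridised to Illumina bead arrays. Per the file headers, the deposited table holds the authors' mean bead intensity, its bead standard error, the number of beads and a detection p-value for 45281 probes on each array, without normalization. The authors' processed intensity values, also deposited, served as an alternative, and how they were processed is not stated. GenomeStudio 2011.1 is named in the submitters' processing notes.

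Here the table was normalized with neqc of limma 3.58.1 (R 4.3.3, offset 16), and log2 values were used. Probes detected (p under 0.05) on at least 6 arrays were kept (23133), with the brightest probe for each of 12027 genes. All 24 arrays were fitted with 4 group means and a spread shared by the groups (lmFit, eBayes). Benjamini-Hochberg adjustment was over all genes at 0.05. Replicates were numbered in the order of deposit, which pairs no samples. Correlations used 100000 permutations within groups over wild types and all 720 pairings within a group (Python 3.11.15, scipy 1.17.1). Pearson's r and the exact test within a group were tried on simulated data, while the permutations over wild types were not. The number of arrays limits the precision, and each array held 1 sample.

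The 6 genes, the gene lists and the tests were chosen with earlier results of these data known. Genes named are the 6, the 12 leading male falls, and from each list the 4 of smallest adjusted p and those called against its majority, plus the genes of closest pattern. Alternatives were other background corrections and normalizations, detection filters, probe averaging, 1 sex alone, raw background as a block and leaving out each array. Raised undetected signals, normexp for the wild-type correlations, mutant correlations with undetected signals, and raw median intensity or lowest detected signal taken out of the wild-type correlations were added after the data were seen. A planned count of the 6 genes called lower in females is not given, because 3 passed the detection filter only through the wild types. Promoter stretches for 4 genes came from RefSeq.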

Additional observations from a re-analysis of the deposited data

Results flagged for a closer look

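Among 28 groups of 6 values, for 7 probes of the 6 genes, 3 held a value farther from the other 5 than Dixon's 95% critical value allows, and chance gives about 1 in 20. Smco2 on mutant female array 6 was at 5.30, detected, while the other 5 lay between 4.55 and 4.67. Smco2 on wild-type male array 3 was at 7.69, while the other 5 lay between 8.51 and 8.78. Dock3 on wild-type female array 6 was at 13.04, while the other 5 lay between 12.66 and 12.79.

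For 13 of the 31 named family genes, the genotype difference in females minus that in males passed the test of the difference itself (limma, adjusted p under 0.05). These genes were named for a small adjusted p in either sex or for their direction, and the share over all genes is not given. The count thus does not describe the families. Elmo1, Insm1, Id2 and Kctd15, measured but not named above, passed too. The signals of Mc3r were partly undetected. It was below 0 for Id1 (-1.93), Neurod4 (-1.65), Mc3r (-1.13), Id3 (-1.04), Pak3 (-0.86), Wasf1 (-0.52), Tiam1 (-0.43) and Kctd10 (-0.41). It was above 0 for Myo7a (1.15), Espn (0.99), Whrn (0.79), Adcy3 (0.49) and Crk (0.46). As the mean of its kept probes, Crk was at 0.15 in males and 0.16 in females, so its value here rests on its brightest probe.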

How the results depend on the processing

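All 6 genes were lower in the mutants of both sexes in every alternative, and Dock3, Neurog1 and Ush1c were called lower in females in each. The size of the differences depended on background correction: with 75th percentile scaling and no correction the male values were -4.93 for Dock3, -3.86 for Mc5r, -3.19 for Neurog1, -3.18 for Ush1c, -1.02 for Kctd4 and -1.88 for Smco2, and the female values -5.13, -2.90, -2.15, -2.38, -2.48 and -2.55. The female minus male difference of the measured falls, which undetected mutant signals limit, for Kctd4 was -2.09 and then -1.46 with that scaling, -1.59 in the authors' table, -1.69 with normexp at offset 50 and -1.76 as the mean of its probes, and for Smco2 -1.08 and then -0.62 with undetected signals raised. Of the 15 wild-type pairs, 3 passed under each normalization and with the share detected or the lowest detected signal taken out, 1 (Ush1c with Smco2, none of the 3) with the raw median intensity taken out, 0 without the 2 farthest arrays and 0 within wild-type males or females alone, and 1 to 4 with each array left out, and fewer animals enter these last settings. Of 1240 alternative values of the 31 named family genes, 25 lost and 7 gained a call and 7 changed sign: in males Wasf1 (0.10) with 75th percentile scaling and Crk (0.15) and Kctd9 (0.059) as means of probes, in females Rac2 (-0.071) with 75th percentile scaling and Myo7a without mutant female 3 (-0.029), mutant female 5 (-0.044) or wild-type female 4 (-0.0067), which was between -0.044 and 0.17 over all arrays left out. The cause of these was not tested. Undetected signals limit the mutant levels of all 6 genes except Dock3 and Ush1c. The mutant levels of these also depended on the background correction. Raw signals of Ush1c were 146 to 218 in mutant males, beside array medians of 106 to 123. In mutant females they were 147 to 192, beside array medians of 101 to 119.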
